A study of Homo sapiens with 6 samples.

Results

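The IFIT genes encode interferon-induced proteins with tetratricopeptide repeats. The gene table held 4 of them, IFIT1, IFIT2, IFIT3 and IFIT5, among 16306 genes, and all 4 were among the 12620 genes tested. They were chosen by gene symbol after their read counts in the comparison described here had been seen. Their own values in that comparison are therefore given as a description, with no test.

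IFIT proteins are made in small amounts in resting cells and accumulate after interferon or viral RNA is sensed. Interferon binds its receptor, the kinases JAK1 and TYK2 pass the signal on, and a complex that holds STAT2 and IRF9 binds interferon-response elements in promoters. IFIT1 binds RNA caps that lack 2′-O methylation, IFIT5 binds RNA with a 5′-triphosphate, IFIT2 and IFIT3 form complexes with IFIT1, and some family members also bind the translation factor eIF3.

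RNA-seq was run on PC9 cells, an established human line from a lung adenocarcinoma with an EGFR exon deletion. The cells carried either a control shRNA (sh-NC, 3 libraries) or an shRNA against the splicing regulator RBM10 (shRBM10, 3 libraries). Which of the RBM10 shRNAs was used is not given in the sources used here. The columns of shRBM10 libraries B and C matched the group but no single sample, so they entered without a replicate number. The labels number the libraries as replicate biosamples without saying whether these were separate cultures, so p-values measure the spread between these libraries, which may be technical.

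Total estimated counts ranged from 16606408 to 18864257 per library. sh-NC replicate 2 stood apart, with a TMM factor of 0.74 where the other 5 lay between 1.03 and 1.08. Against the mean of the other sh-NC libraries, the longest quartile of transcripts was lower in it by a median of 0.81 on the log2 scale, and the shortest quartile was higher by 0.68. shRBM10 libraries A and B also differed by base composition. The genes in the lowest quartile of GC content lay there at medians of 1.17 and 0.85 on the log2 scale against the sh-NC mean, while in library C they lay at 0.13. The keratin, EPCAM and EGFR markers of epithelial cells were all expressed, with summed counts of 443669 to 746351 per library. Of the lung markers, NKX2-1 and SFTPB had at most 3 counts in any library and NAPSA had 9 to 17. Of the leukocyte markers, PTPRC, LYZ and ITGAM had at most 7 counts and CD14 had 15 to 29. CSF1R had 563 to 1710 counts, with every shRBM10 library above every control after normalization and a log2 fold change of 0.57. Its part in the IFIT values was not tested. Of the fibroblast markers, COL1A1 had 28 to 185 counts and a log2 fold change of 0.77 ± 0.41 (SE), with overlapping groups. PDGFRB had 8 to 26 counts and -0.37 ± 0.45, and COL1A2 had at most 2 counts. The photoreceptor markers found, CRX and PDE6B, had at most 3 counts.

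RBM10 was examined first as the targeted gene. Its normalized counts were 1431, 1183 and 1469 in sh-NC and 537, 515 and 672 in shRBM10. Every shRBM10 library was below every control. The log2 fold change was -1.24 ± 0.23 (SE), with an adjusted p of 0.10 by edgeR's quasi-likelihood test and 0.0014 by DESeq2.

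The 4 IFIT genes lie on the plus strand of chromosome 10 (hg38, GENCODE annotation), within 137 kb. IFIT2 lies at chr10:89283694-89309276, IFIT3 at chr10:89327894-89340971, IFIT1 at chr10:89392546-89406486 and IFIT5 at chr10:89414586-89421001. LIPA, a lysosomal acid lipase gene, spans chr10:89213569-89414557 on the minus strand and so covers the first 3. Over the exons of all GENCODE transcripts, 65 bases of IFIT2 were shared with LIPA exons, and none of IFIT1, IFIT3 or IFIT5. The only IFIT2 transcript counted, NM_001547, begins at 89301955. Whether it holds any of the 65 bases was not checked. The strand setting of the counting is not given in the sources used here, so reads in these 65 bases cannot be told apart by strand.

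The promoters are shown because they carry the element through which the family is known to be induced. The pattern searched was 2 copies of GAAA with any 2 bases between them, or the same with TTTC for the other strand. The RefSeq windows (GRCh38.p14) run from 250 bases before a start site to 50 after it. Stretches of those windows are printed 5′ to 3′ on the plus strand, with each match in capitals. IFIT2 had no entry.
IFIT3, upstream start, chr10:89327826-89327899: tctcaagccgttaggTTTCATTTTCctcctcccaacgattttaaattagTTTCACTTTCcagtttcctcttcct
IFIT3, downstream start, chr10:89332420-89332502: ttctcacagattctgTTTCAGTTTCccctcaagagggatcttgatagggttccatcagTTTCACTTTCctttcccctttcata
IFIT1, chr10:89392492-89392544: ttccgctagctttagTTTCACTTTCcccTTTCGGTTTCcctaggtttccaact
IFIT5, chr10:89414508-89414577: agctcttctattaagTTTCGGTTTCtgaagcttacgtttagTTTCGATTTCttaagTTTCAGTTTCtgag

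All 4 windows held at least 2 matches, and the IFIT5 window held 3. Among all 35116 windows, 3.57% held a match and 0.259% held 2 or more. In IFIT1 the matches began 116 and 103 bases before the RefSeq start site. In IFIT5 they began 45, 19 and 4 bases before it. GENCODE starts IFIT1 at 89392546 and IFIT5 at 89414586, where the RefSeq start sites are 89392623 and 89414568. These distances and their order are therefore given for the RefSeq starts only. A match describes these letters and is not a measured binding site.

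**Figure D1:**
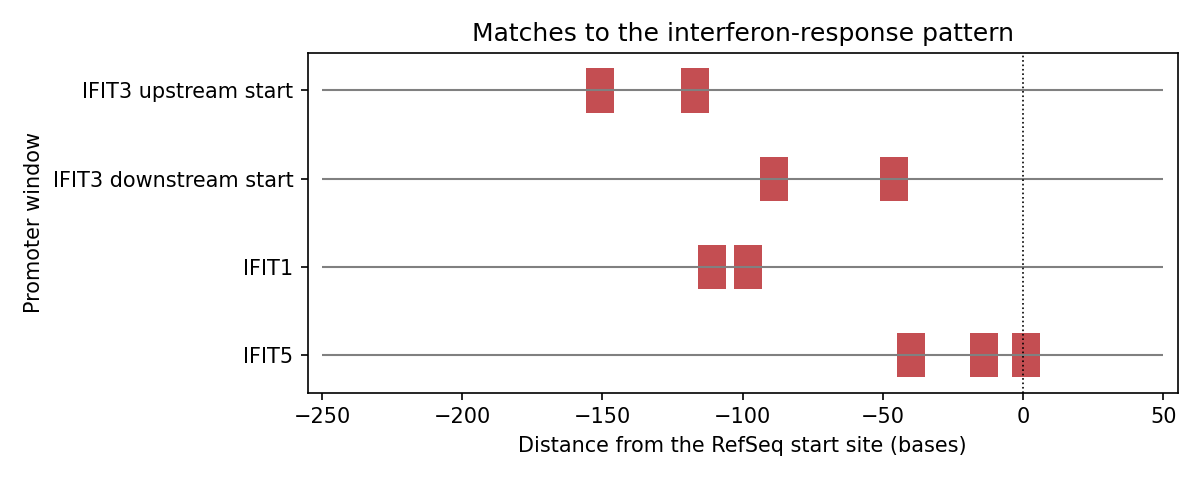
Matches to the interferon-response pattern (red boxes) in the 4 RefSeq promoter windows of IFIT1, IFIT3 and IFIT5, by distance from the start site in bases (dotted line at 0). By these RefSeq starts, which differ from those of GENCODE, the IFIT5 matches lie nearest to the start, within 45 bases of it.

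IFIT1, which binds caps without 2′-O methylation, had the highest counts of the family. Its normalized counts were 1011, 1860 and 991 in sh-NC and 6581, 6576 and 3765 in shRBM10. These did not overlap. Unlike IFIT2 and IFIT3, IFIT1 was highest among the controls in sh-NC replicate 2, the library that stood apart, by counts. By the authors' TPM it was lowest there. The means were 1287 ± 496 (SD, n = 3) and 5640 ± 1624 (SD, n = 3), and the log2 fold change was 2.13 ± 0.34 (SE). The IFIT1 transcript with most counts has 1880 bases, within the shortest quartile, which was higher in sh-NC replicate 2. Those of IFIT2 and IFIT3 have 3489 and 2496 bases. The part of length in these directions was not tested.

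IFIT2, which associates with IFIT1 and IFIT3 and is linked to cell death, had normalized counts of 863, 434 and 836 in sh-NC and 6077, 4721 and 2052 in shRBM10. These did not overlap. sh-NC replicate 2 was the lowest control and library C the lowest shRBM10 library. The log2 fold change was 2.59 ± 0.42 (SE).

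IFIT3, which stabilizes IFIT1 and helps it bind RNA, had normalized counts of 365, 93.1 and 295 in sh-NC and 1940, 1946 and 826 in shRBM10. These did not overlap, but the controls spread over 1.97 log2 units because replicate 2 was low. The log2 fold change was 2.64 ± 0.50 (SE).

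IFIT5, which binds RNA with a 5′-triphosphate, had the lowest counts. Its normalized counts were 66.2, 61.6 and 54.1 in sh-NC and 299, 223 and 104 in shRBM10. These did not overlap. The controls differed by only 0.29 log2 units, and the shRBM10 libraries by 1.53. The log2 fold change was 1.78 ± 0.40 (SE).

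In all 4 genes library C was the lowest shRBM10 library. Even there, each gene was above its highest control, by 2.02-fold for IFIT1, 2.38-fold for IFIT2, 2.27-fold for IFIT3 and 1.57-fold for IFIT5. Library C also had the highest RBM10 count of the shRBM10 group. The GC content of the RBM10 transcript with most counts was 60.3%. On the log2 scale against the sh-NC mean, the highest GC quartile had medians of -0.55, -0.40 and -0.04 in libraries A, B and C. The part of base composition in this order was not tested. Against the sh-NC mean, the median of the 4 genes was 2.79, 2.61 and 1.60 on the log2 scale in libraries A, B and C. Across all genes, library C was nearer to sh-NC replicates 1 and 3 than to its own group. Its log2 levels correlated at 0.981 and 0.980 with those controls, and at 0.941 with sh-NC replicate 2. With shRBM10 libraries A and B they correlated at 0.947 and 0.969. The part of this in the IFIT values was not tested.

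**Figure D2:**
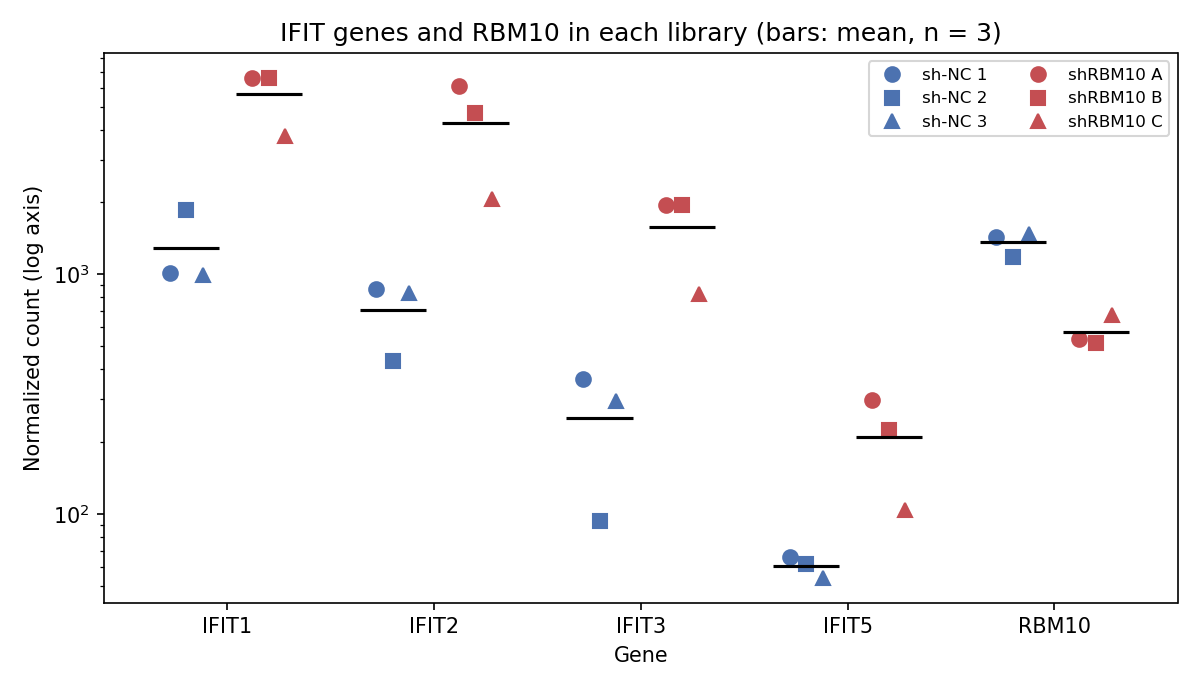
Normalized counts (log axis) of the IFIT genes and RBM10 in each of 3 sh-NC (blue) and 3 shRBM10 (red) libraries, with black bars for the group means. No IFIT gene has an shRBM10 library within the range of its controls, and library C (red triangles) is the lowest of the red points in all 4.

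The genes were selected on this contrast, so the following counts are read only as a description. All 4 had every shRBM10 library above every sh-NC library, as had 13.8% of the genes tested. All 4 were past an unadjusted p of 0.05 and a log2 fold change of 1 in edgeR, where 10.1% of the genes tested were higher by that rule and 1.53% lower. DESeq2 called all 4 with adjusted p, and called 3.19% of its genes higher. edgeR with adjusted p called none of the 4, and 0.0158% of the genes tested, though some alternative edgeR fits called members. Those called were MMP13 and GPNMB. The median log2 fold change over all genes tested was 0.03.

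sh-NC replicate 2 moved the members in different directions. Without it, the log2 fold change of IFIT1 was 2.41, of IFIT2 2.24, of IFIT3 2.17 and of IFIT5 1.70, so the order of IFIT1 and IFIT3 turned. The members are lower in GC content than most genes tested, IFIT3 the least so. The GC content of the transcript with most counts was 41.1% in IFIT1, 41.6% in IFIT2, 44.3% in IFIT3 and 37.4% in IFIT5. Of the genes tested, 17.9%, 20.3%, 31.0% and 4.83% had a lower value, in the same order. After removal of GC trends per library, with the longest transcript of each gene, the log2 fold changes were 1.43, 1.97, 2.18 and 1.00. With the transcript that had most counts they were 1.32, 1.85, 2.13 and 0.99.

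Per length, IFIT1 and IFIT2 had similar levels and IFIT5 was far lower. In sh-NC the levels were 17.7 ± 0.77 TPM for IFIT1, 15.0 ± 8.56 for IFIT2, 8.09 ± 5.72 for IFIT3 and 0.98 ± 0.35 for IFIT5 (SD, n = 3). In shRBM10 the authors' means were 98.1, 97.0, 51.9 and 3.93 TPM, in the same order. In sh-NC replicates 1 to 3 the TPM of IFIT1 was 18.2, 16.8 and 18.1, that of IFIT2 20.1, 5.09 and 19.7, and that of IFIT3 12.4, 1.61 and 10.2. The ranges of IFIT1 and IFIT2 overlapped, as did those of IFIT2 and IFIT3, and every IFIT3 value lay below every IFIT1 value. By TPM all 4 genes were lowest in sh-NC replicate 2, where IFIT5 had 0.60 against 1.28 and 1.06.

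The ratio of IFIT1 to IFIT3 counts was 2.77 and 3.36 in sh-NC replicates 1 and 3, and 3.39, 3.38 and 4.56 in shRBM10. In sh-NC replicate 2 it was 19.97. The ratio of IFIT2 to IFIT5 counts was 13.04, 7.04 and 15.4 in sh-NC and 20.3, 21.1 and 19.8 in shRBM10. All 3 shRBM10 libraries therefore held more IFIT2 relative to IFIT5 than any control. The ratio of IFIT3 to IFIT5 separated too, at 5.51, 1.51 and 5.45 in sh-NC and 6.49, 8.72 and 7.96 in shRBM10. That of IFIT1 to IFIT5 overlapped between the groups. The share of all gene pairs that separate was not computed. IFIT5 has the lowest GC content of the family, and the part of base composition in these ratios was not tested.

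The transcript table split IFIT1 into 5 RefSeq transcripts and IFIT3 into 3, and gave IFIT2 and IFIT5 1 each. NM_001548 took 92.9% ± 1.08 of IFIT1 counts in sh-NC and 91.7% ± 1.23 in shRBM10 (SD, n = 3). For IFIT3, NM_001549, which begins at the upstream start, took 88.2% ± 10.3 in sh-NC and 87.4% ± 1.85 in shRBM10. NM_001031683, from the downstream start, took 17.9%, 0% and 11.1% in sh-NC and 9.70%, 8.22% and 10.9% in shRBM10. Its estimated count of 0 in sh-NC replicate 2 stands beside only 68 IFIT3 counts there. The shares of the main transcripts overlapped between the groups.

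The genes upstream of the family were compared next, with calls from the edgeR fit over all genes tested. No gene of any list named below passed adjusted p by edgeR, and counts by unadjusted p and by DESeq2 are given instead. For every list, the share of all genes tested that was higher by unadjusted p and fold change was 10.1%, and 1.53% were lower. It was 4.81% higher without sh-NC replicate 2 and 2.22% with the GC trend removed. DESeq2 called 3.19% of its genes higher.

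Among 9 RNA sensors and adaptors, 4 were higher by unadjusted p and fold change and none lower, and DESeq2 called 3 higher. The median log2 fold change was 0.42. RIGI (listed as DDX58), which senses 5′-triphosphate RNA, had counts of 213, 62 and 246 in sh-NC and 1363, 928 and 402 in shRBM10, a log2 fold change of 2.41 ± 0.50 (SE). IFIH1, which senses long double-stranded RNA, changed by 2.30 ± 0.50, and the endosomal sensor TLR3 by 1.67 ± 0.41. DESeq2 called these 3. TBK1, the kinase downstream, had a log2 fold change of 1.20 ± 0.42. IRF3, the factor it phosphorylates, had -0.43 ± 0.25, and the adaptor MAVS -0.29 ± 0.23. Without sh-NC replicate 2, 3 were higher by unadjusted p, and with the GC trend removed 2 were.

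Of 20 type I and type III interferon genes, 8 were in the table and 4 were tested. None passed unadjusted p by edgeR or was called by DESeq2. IFNB1 had counts of 69, 107 and 69 in sh-NC and 129, 128 and 122 in shRBM10, a log2 fold change of 0.47 ± 0.38 (SE). After normalization the groups overlapped, since sh-NC replicate 2 at 147 was above the shRBM10 libraries at 132, 123 and 117. Without that control the log2 fold change was 0.91. With the GC trend removed it was -0.18, so its direction turned. IFNL1, IFNL2 and IFNL3 had log2 fold changes of 0.20, 0.63 and 0.66. IFNL2 and IFNL3 are nearly identical, so the split of reads between them is uncertain.

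Over 11 receptors, kinases and transcription factors, the median log2 fold change was 0.23, and no gene was lower by unadjusted p and fold change. JAK1 was higher by that rule, with a log2 fold change of 1.06 ± 0.38 (SE), and DESeq2 did not call it. IFNAR1 had a log2 fold change of 0.95 ± 0.32 and STAT2 of 0.72 ± 0.22. IRF9, which pairs with STAT2, had 0.11 ± 0.24, IRF7 0.25 ± 0.29 and IRF1 0.23 ± 0.25. TYK2 had -0.30 ± 0.24, IFNLR1 -0.28 ± 0.35, IL10RB -0.16 ± 0.25 and IFNAR2 0.08 ± 0.28. With the GC trend removed none of the 11 was higher by unadjusted p and fold change.

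Of 40 other interferon-stimulated genes, 20 were higher by unadjusted p and fold change and none lower, where 10.1% of all genes tested were higher. DESeq2 called 18 higher, and 3.19% of all its genes. The median change of the 40 was 0.96 on the log2 scale. Of the 40, 38 were above 0, as were 6514 of the 12620 genes tested. Without sh-NC replicate 2 the median was 1.03 with 22 higher by unadjusted p, and with the GC trend removed it was 0.93 with 17. The share of all genes higher by that rule was 4.81% and 2.22% in those fits.

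The 5 largest changes of the list were in RSAD2, HERC5, TRIM22, XAF1 and PARP14. RSAD2, which makes a chain-terminating nucleotide, had counts of 7, 10 and 10 in sh-NC and 123, 90 and 36 in shRBM10, a log2 fold change of 3.11 ± 0.54 (SE). HERC5, the ligase that attaches ISG15, changed by 2.61 ± 0.49, TRIM22 by 2.59 ± 0.45, XAF1 by 2.52 ± 0.54 and PARP14 by 2.18 ± 0.53. All 5 were DESeq2 calls. The other 15 genes higher by unadjusted p ranged from 1.02 in EIF2AK2 to 2.05 in SAMD9L. They also included IFI44, DDX60, IFI44L, HERC6, CMPK2, EPSTI1, PARP9, MX2, TDRD7, SAMD9, OAS2, IFI27 and DTX3L, and DESeq2 called all but EIF2AK2 and DTX3L. ISG15 itself had 0.52 ± 0.35, IFITM3 0.26 ± 0.31, BST2 0.23 ± 0.30 and TRIM25 -0.52 ± 0.23. IFITM1, IFITM2 and IFITM3 are close paralogs, so the split of their reads is uncertain.

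Library C was also the lowest shRBM10 library for most of the raised genes of this list. It was the lowest in 17 of the 20 higher by unadjusted p and fold change, and in 20 of all 40. The share of all genes that were lowest there is not given here. The median of the lowest GC quartile of all genes was also lowest in library C, at 0.13 against 1.17 and 0.85. The part of base composition in this was not tested. Normalized counts in libraries A, B and C were 845, 674 and 258 for HERC5 and 2246, 1674 and 670 for PARP14. The list median against the sh-NC mean was 0.94, 1.12 and 0.93 on the log2 scale.

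Of the 40, 34 had a RefSeq promoter window, and 24 of those (70.6%) held the pattern. Among the genes tested with a window the share was 3.80%. The 24 with a match had a median log2 fold change of 0.94 and the 10 without had 1.12.

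**Figure D3:**
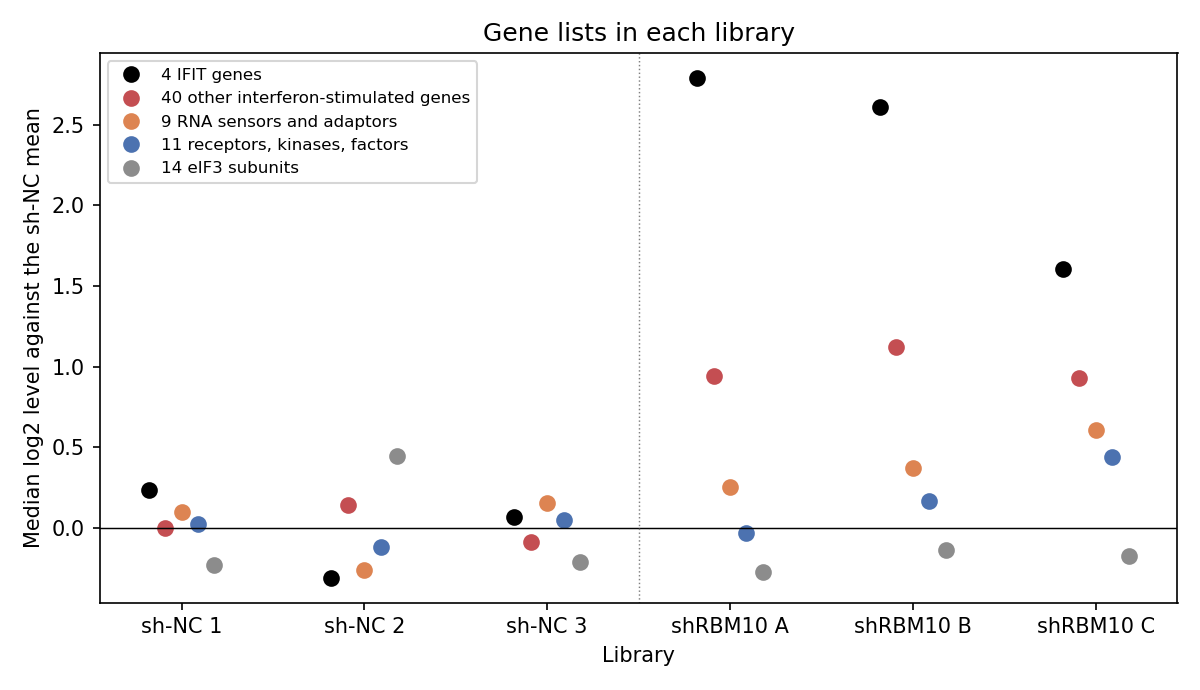
Median log2 level of the IFIT genes and 4 gene lists in each library, against the mean of the sh-NC libraries (line at 0). The IFIT median is 2.79, 2.61 and 1.60 in the shRBM10 libraries, and the other interferon-stimulated genes stay between 0.93 and 1.12 there.

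Among 5 inhibitors of interferon signaling, PIAS1, a SUMO ligase, was higher by unadjusted p and fold change and was called by DESeq2, with a log2 fold change of 1.28 ± 0.40 (SE). With the GC trend removed PIAS1 had 0.54 and did not pass. USP18, which blocks the receptor, had 0.19 ± 0.31 and SOCS1 -0.31 ± 0.40. The list median was 0.19.

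Among 8 genes of the mRNA cap and the RNA 5′ end, which act on what IFIT1 and IFIT5 bind, 2 were higher by unadjusted p and fold change. DESeq2 called none of the 8. The higher genes were RNMT, the cap guanine methyltransferase, at 1.29 ± 0.43 (SE), and CMTR2, a cap 2′-O methyltransferase, at 1.20 ± 0.43. With the GC trend removed they had 0.54 and 0.46 and neither passed. In library C both lay below their highest control, at 154 against 166 and 298 against 311 normalized counts. CMTR1, the other cap 2′-O methyltransferase, had -0.28 ± 0.21, and PCIF1 -0.68 ± 0.23. Of the 8 genes, 4 were above 0 and 4 below. The list median was 0.33, and -0.12 with the GC trend removed.

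None of the 14 eIF3 subunits was higher or lower by unadjusted p and fold change, and DESeq2 called none. The median log2 fold change was -0.25. EIF3A had the largest, 1.18 ± 0.62 (SE), with 175 counts in sh-NC replicate 2 against 2056 and 1801 in the other controls.

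Of the genes beside the cluster, 6 were tested. FAS, a death receptor, was higher by unadjusted p and fold change at 1.15 ± 0.38 (SE), and DESeq2 called none of the 6. FAS had 0.41 with the GC trend removed and 0.98 without sh-NC replicate 2, and passed in neither fit. LIPA, which overlaps the cluster, had counts of 2059, 3188 and 2235 in sh-NC and 3997, 3541 and 3113 in shRBM10, a log2 fold change of 0.35 ± 0.34. The lowest shRBM10 count of LIPA lay below its highest control count. STAMBPL1 had 0.41, PANK1 0.35, KIF20B 0.51 and ACTA2 -0.04. With the GC trend removed the directions turned, to -0.28 in LIPA, -0.18 in PANK1, -0.04 in KIF20B, -0.02 in STAMBPL1 and 0.03 in ACTA2, and the median of the 6 went from 0.38 to -0.03. CH25H and SLC16A12 had at most 3 counts in any library and were not tested. IFIT1B was not found in the gene table and so was not analysed here.

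Endothelial markers moved with the groups. CDH5 had counts of 177, 61 and 176 in sh-NC and 40, 62 and 57 in shRBM10, and VWF had a log2 fold change of -1.31, while PECAM1 had at most 3 counts in any library. Their summed counts were 73 to 207 in sh-NC and 48 to 72 in shRBM10. Their part in the IFIT values was not tested.

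The genes whose profile over the 6 libraries was nearest to that of the family were CTSO, ENPP5, SMARCA1, DIPK1A and KYNU. Likeness was the Euclidean distance between centred log2 levels among 12001 other genes. The distances were 0.39, 0.55, 0.57, 0.58 and 0.60, against a median of 3.04. None of the 5 belonged to the lists described above. KYNU, a tryptophan catabolic enzyme, had counts of 779, 459 and 883 in sh-NC and 3342, 3199 and 1628 in shRBM10. As in the IFIT genes, library C was the lowest of its shRBM10 libraries. The 4 members themselves lay 0.56 to 1.27 from their mean profile, IFIT3 the farthest.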

How the data were processed

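The authors deposited a gene table and a transcript table of estimated counts per library, and TPM values for some libraries. The processing notes name the build hg38. The aligner, the counter and the strand setting are not given in the sources used here, and the protocol text names retinas and both a directional kit and another. 47 other value columns of the tables were not used. No column of fold changes or p-values was used. The deposited estimated counts were rounded and tested with edgeR 4.0.16 (quasi-likelihood, TMM, filterByExpr) in R 4.3.3, with Benjamini-Hochberg adjustment. A call needed an adjusted p under 0.05 and a log2 fold change over 1 in size. DESeq2 1.42.0 was an alternative. SE is the log2 fold change divided by the root of F. Normalized counts are scaled to the mean effective library size, and log2 levels add 0.5 to counts. The scripts were tested on simulated data. GC content and length came from GENCODE 29 transcripts, found for 99.5% of genes tested. The planned GC correction took the longest transcript. Versions with length, or with the transcript that had most counts, were added after the first values were seen. The members and lists were chosen with earlier results of these data known. Named genes were the members, RBM10, the receptors, kinases and factors (1 result is not reported here), all neighbours, list genes that passed a rule, up to 5 per list with the largest changes and at least 20 mean counts, and the 5 nearest profiles. Replicates 1 and 3 of sh-NC gave a chi-square of 2.99 per degree of freedom, above sampling noise, and stayed separate libraries.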

Additional observations from a re-analysis of the deposited data

How the results depend on the processing

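All 4 IFIT genes kept a log2 fold change above 0 in each of the 15 alternatives. Their median, 2.36 as reported, was 1.70 with the GC trend removed and 1.71 with GC and length trends removed, and 1.59 and 1.74 when the transcript with most counts replaced the longest, a choice made after seeing the data. Genes called numbered 2 as reported, 537 with DESeq2, 31 with no filter, 4 with the GC trend removed by either transcript, 117 and 175 with GC and length trends removed (longest and most counted transcript), and 1466 by unadjusted p. Leaving out 1 library gave 0 to 23, the highest without sh-NC replicate 2 and 0 without sh-NC replicate 3 or any 1 shRBM10 library. Of the 40 other interferon-stimulated genes, 0 were called as reported, 18 with DESeq2, 5 with no filter, 10 and 14 with GC and length trends removed, 20 by unadjusted p, and 0 to 3 leaving out 1 library, the 3 without sh-NC replicate 2. Their median stayed between 0.89 and 1.06 in all alternatives. Adjusted p called 4 of the IFIT genes with DESeq2, 3 with no filter, 1 without sh-NC replicate 2, and 1 and 2 with GC and length trends removed. In those fits 409, 21, 12, 78 and 106 genes were called higher, out of 12620 to 16306 genes in the fit. With the GC trend removed by the most counted transcript, 3 IFIT genes passed unadjusted p and fold change. By that rule 2.30% of all genes tested were higher in that fit. The causes were not tested. With 3 libraries a group and 1 control that stands apart, adjusted calls depend on these choices. The labels give no pairing for shRBM10 libraries B and C. A replicate block on the last letter of the column names was added after seeing the data. It called 861 of 12620 genes, 755 of them higher, with 20 of the other interferon-stimulated genes and 4 IFIT genes. The IFIT median was 2.34. Deviations of libraries with the same letter correlated at 0.35, -0.05 and -0.31 across genes. Those with different letters correlated at -0.42 to 0.39, so these values cannot show whether libraries were paired.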
